A study of Mus musculus with 10 samples.

Results

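Cxcl1, Cxcl2, Cxcl3 and Ppbp, which encode ligands of the chemokine receptor CXCR2, were followed by gene symbol through the cells of mouse lung tumours. They are 4 of the 32285 genes of the single-cell matrix, and all 4 were detected in it and in the bulk libraries. The tumours grew in the lungs of syngeneic mice after intravenous injection of KP cells (a mouse lung adenocarcinoma line), were found by MRI, and were treated for 11 days. Groups of 3 mice received SHP099+SX682 (written here as the combination), SHP099, SX682 or Vehicle. SHP099 is an allosteric inhibitor of the phosphatase SHP2, which acts between growth factor receptors and RAS, and SX682 is an inhibitor of the receptors CXCR1 and CXCR2. Live cells of dissociated nodules were tagged by mouse, the 3 mice of a treatment were pooled, and each treatment was 1 capture, so treatment and capture cannot be told apart in any single-cell contrast. A separate set of bulk libraries held sorted Epcam+ tumour cells of 3 SHP099 and 3 Vehicle mice. All tumours, those of Vehicle mice included, came from the injected KP cells.

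CXCR2 ligands are small secreted chemokines with a glutamate-leucine-arginine motif before their first cysteines, and they draw neutrophils out of blood towards the site of release. Cxcl1, Cxcl2 and Cxcl3 are early response genes switched on by NF-kB after signals such as interleukin 1, TNF and interleukin 17, in epithelial cells, fibroblasts and myeloid cells alike. Ppbp encodes platelet basic protein, whose cleaved form also binds CXCR2, and is classically a gene of megakaryocytes and platelets, as is its neighbour Pf4 (platelet factor 4). Neutrophils carry CXCR2 and can also make Cxcl2, so they may be both a source and a target. The data hold transcripts and not secreted protein.

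The 4 genes lie together on mouse chromosome 5 (mm10, plus strand), within a cluster of 146.579 kb that runs in the order Cxcl5, Ppbp, Pf4, Cxcl3, Cxcl15, Cxcl1 and Cxcl2. Ppbp spans positions 90768518 to 90770063, Cxcl3 90786103 to 90789600, Cxcl1 90891241 to 90893115 and Cxcl2 90903871 to 90905938. The windows compared were the 100 bases before each RefSeq start (GRCm38.p6, plus strand). Capitals mark GGGAATTTCCC, the longest run of letters that the windows of Cxcl1, Cxcl2 and Cxcl3 share. This run holds a form of the NF-kB motif. It was chosen from those windows with Ppbp left out, so its absence from the Ppbp window is not an independent separation of Ppbp. The windows are chr5:90891145-90891244 for Cxcl1, chr5:90903799-90903898 for Cxcl2, chr5:90786001-90786100 for Cxcl3 and chr5:90768418-90768517 for Ppbp.
Cxcl1: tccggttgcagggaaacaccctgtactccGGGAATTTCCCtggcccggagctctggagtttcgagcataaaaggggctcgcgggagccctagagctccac
Cxcl2: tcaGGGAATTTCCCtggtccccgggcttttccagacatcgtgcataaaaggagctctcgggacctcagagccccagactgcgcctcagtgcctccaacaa
Cxcl3: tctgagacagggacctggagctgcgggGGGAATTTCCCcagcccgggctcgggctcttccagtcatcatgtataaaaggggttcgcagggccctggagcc
Ppbp: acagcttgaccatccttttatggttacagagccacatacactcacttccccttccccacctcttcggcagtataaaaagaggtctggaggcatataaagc
The run begins 71 bases before the start in Cxcl1, 97 in Cxcl2 and 73 in Cxcl3, and on neither strand are these letters in the Ppbp window. Searched on both strands, it was found in 5 of 32851 windows of the same length, or 0.0152%. Cxcl1, Cxcl2 and Cxcl3 are among these 5 by the choice of the run, and the other genes with it were Gm32236 and Il16. A match in this window is a description of letters and not of binding.

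The authors' deposited cell table gives 44986 cells in 33 numbered clusters, with 2289 to 6399 cells per mouse and at least 500 unique molecular identifiers (UMIs, counted transcripts) per cell. The median UMIs per cell by mouse were 1532 to 1632.5 in the combination, 1440 to 1612 in SHP099, 2501.5 to 2731.5 in SX682 and 2824 to 4838 in Vehicle mice. Of 43973 distinct barcodes, 1009 stood in more than 1 capture and 0 in 2 mice of the same capture. Clusters were named from marker genes, as neutrophil-like and so on, with the suffix dropped below. Clusters 28 to 33 held 6 or 7 of 7 neutrophil markers and match, in this order, the authors' neutrophil states N1 to N6 (9540 cells). Clusters 21 and 23 held 6 and 4 of 8 epithelial markers and are called tumour cells (4093 cells). Cluster 21 was led by the intestinal-type genes Lypd8, Muc3, Prap1 and Phgr1 and cluster 23 by Cdkn2a, Ankrd1, Prl2c2 and Hmga2. Clusters 15 and 25 are macrophages (4386 cells) and cluster 20 fibroblasts (379 cells). Cluster 16 (1377 cells) was led by Arg1, Pf4, Saa3, Ccl24, Fcna and Ccl7 with 4 of 8 monocyte and 3 of 7 macrophage markers and stays unnamed. The clusters were made from the same cells' expression, Cxcl2 is among the leading genes of N2 and Cxcl3 leads N5, so differences between clusters are given as descriptions with no test.

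The main source differed between Cxcl1, Ppbp and the pair Cxcl2 and Cxcl3. Over all mice, tumour cells held 54.4% of the Cxcl1 UMIs, with 48.5% in cluster 23 and 5.93% in cluster 21. Neutrophils held 57.9% of the Cxcl2 UMIs and 51.3% of the Cxcl3 UMIs but 5.88% of the Cxcl1 UMIs. Cluster 16 was second for Cxcl1 at 19.4%, with fibroblasts at 9.97% and macrophages at 7.15%. It held 10.9% of the Cxcl2 and 17.1% of the Cxcl3 UMIs. Of the Ppbp UMIs, 58.9% were in cluster 16, 8.09% in tumour cells, 6.45% in endothelial cells and 6.19% in T cells. This pooled Ppbp share rests mostly on Vehicle mice, where cluster 16 held 246, 50 and 150 of 360, 98 and 157 UMIs. It held 7, 3 and 5 of 93, 19 and 6 in SX682 mice and 0, 5 and 0 of 5, 6 and 3 in SHP099 mice. In combination mice it held 0 of 5, 10 and 29. A large share can come from many cells or from much transcript per UMI, and the levels below separate these.

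On the CPM scale (UMIs of a gene scaled to the total of the class in a mouse, with mean and SD over mice with at least 10 cells of the class), Cxcl2 averaged 25603 ± 3335 in neutrophils (n = 12), and no neutrophil value overlapped those of the next class, cluster 16, at 4444 ± 1581 (n = 9). After these came cluster 14 at 2478 ± 1044, monocytes at 1858 ± 815, tumour cells at 1595 ± 874, macrophages at 1257 ± 294, B cells at 972 ± 519, fibroblasts at 517 ± 234 (n = 8) and T cells at 422 ± 171, with neighbouring classes overlapping. The other classes were between 271 (plasma cells) and 2463 CPM (cluster 22, n = 4). Cxcl3 averaged 840 ± 228 CPM in neutrophils, again without overlap with cluster 16 at 212 ± 128, and 70.4 ± 29.2 in tumour cells. Cluster 22 had 116 ± 106 (n = 4), and each of the remaining classes averaged at most 43.5 CPM of Cxcl3. For Cxcl1 the order was different, and every pair of neighbours overlapped: fibroblasts averaged 184 ± 145 (n = 8), cluster 16 142 ± 123 (n = 9), cluster 22 122 ± 166 (n = 4), tumour cells 112 ± 62.6 and neutrophils 55.5 ± 36.1 (n = 12). These means pool the treatments, in unequal numbers of mice where n is below 12, and the Cxcl1 order depends on treatment. In Vehicle mice neutrophils, at 95.2, 107 and 127 CPM, stood above tumour cells, at 78.2, 82.0 and 64.7 CPM. In every mouse given a drug tumour cells stood above neutrophils. Macrophages averaged 22.9 ± 36.2 CPM and monocytes 7.98 ± 15.4. T cells, at 2.71 ± 3.38 CPM, and B cells, at 1.66 ± 2.44 CPM, were near 0 for Cxcl1. Ppbp was low wherever it was found, with 21.3 ± 24.2 CPM in cluster 16 and 10.8 ± 11.9 in endothelial cells (n = 11), and neutrophils had 2.15 ± 4.49 CPM.

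**Figure D1:**
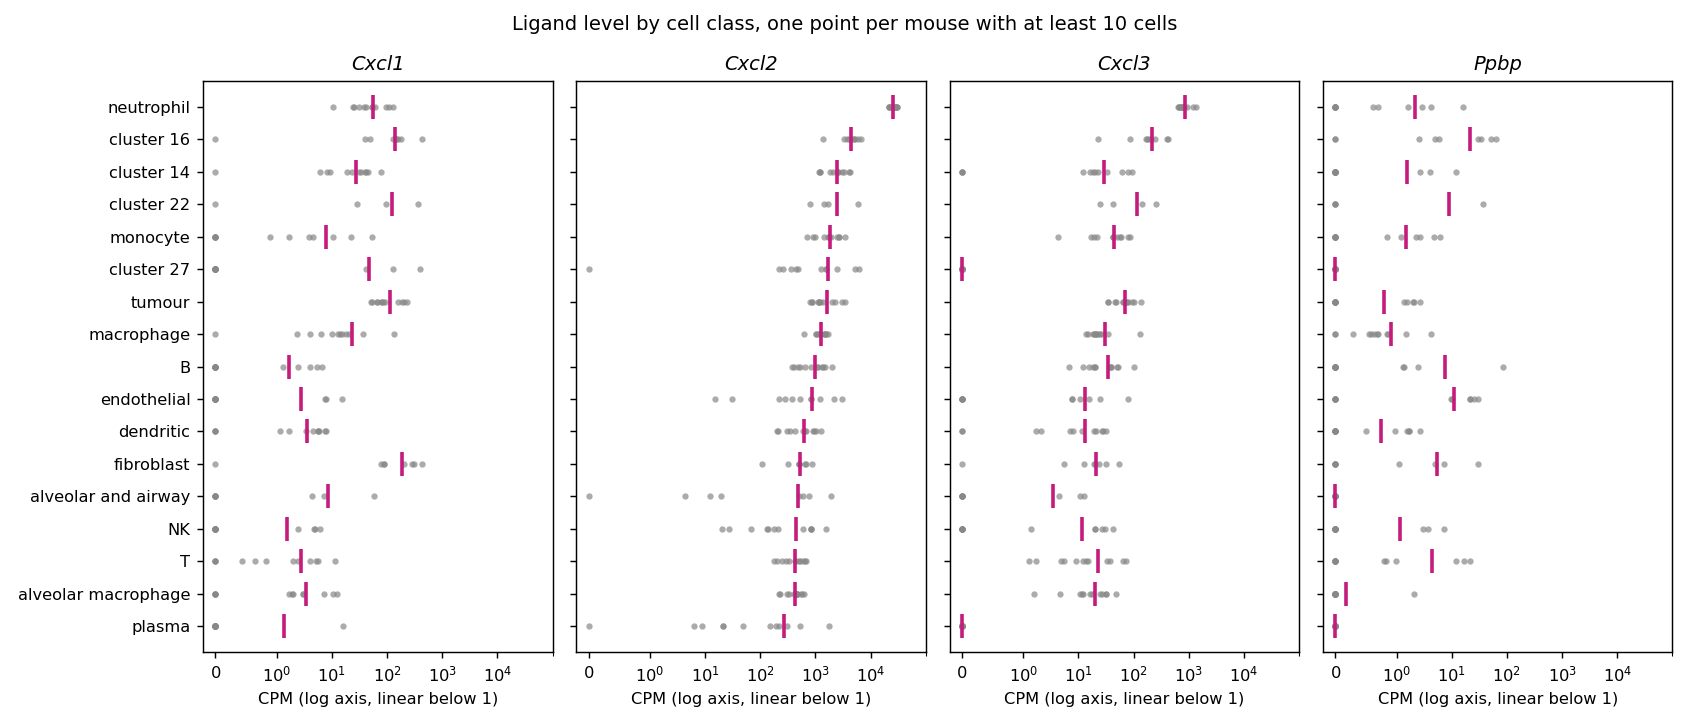
Level of each ligand by cell class, in CPM on a log axis that is linear below 1, with 1 panel a ligand. Grey points are mice with at least 10 cells of the class and magenta lines are means over mice: Cxcl2 and Cxcl3 stand highest in neutrophils (means 25603 and 840 CPM), Cxcl1 in fibroblasts (184) and Ppbp in cluster 16 (21.3).

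The mix of the ligands within a class showed the same division. Of the Cxcl1, Cxcl2 and Cxcl3 UMIs in fibroblasts, Cxcl1 made up 25.2 ± 14.2%. In tumour cells its part was 6.67 ± 2.96%. In neutrophils it was 0.205 ± 0.124%, where Cxcl2 made up 96.6 ± 0.755%. These are shares of UMIs within a class and not levels per length.

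Cxcl1 was carried by few cells. In neutrophils 2.27% of cells had a Cxcl1 UMI, and the 95 cells with most Cxcl1 held 77.8% of the class's UMIs. In tumour cells 20.8% of cells had one, and the top 409 cells held 90.5%. With cells thinned to 1000 UMIs the share was 4.77% in tumour cells, 7.61% in cluster 16, 7.18% in fibroblasts and 2.24% in neutrophils, against 0.104% in T cells. Median depth was 10113 UMIs in tumour cells, 1085 in neutrophils and 1563 in T cells. Cxcl2 was the opposite: 94.1% of neutrophils and 87.8% of cluster 16 cells had a UMI. A Cxcl2 UMI was also seen in 9.73% of T cells, 10.4% of B cells and 7.81% of NK cells, classes set here as the background for free RNA.

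Cxcl2 outside neutrophils was compared with neutrophil transcripts. The CPM of Cxcl2 in a class was divided by that of S100a8 and S100a9, neutrophil genes, and this ratio was set over the same mouse's neutrophils, so that a class whose Cxcl2 came with neutrophil RNA in the proportions of whole neutrophils would give 1. For Cxcl2 the median ratio over mice was 0.902 in T cells, 1.07 in NK cells, 1.15 in B cells, 1.54 in tumour cells and 1.80 in macrophages. It was 5.81 in cluster 16 and 22.3 in cluster 14, a myeloid cluster led by Retnla and Ccl17. For Cxcl1 it was 58.2 in tumour cells, 49.6 in cluster 16 and 314 in fibroblasts. In lymphocytes it was 2.15 in T cells and 0 in B and NK cells, on few UMIs. The Cxcl2 of lymphocytes thus stood near the neutrophil proportion by its medians. Of 12 mice, 4 were above 1 in T cells, 6 in NK cells and 9 in B cells. In tumour cells the Cxcl2 ratio was above 1 in 12 of 12 mice (1.18 to 3.15), as in macrophages (1.24 to 8.43). By their medians, the Cxcl1 of tumour cells, cluster 16 and fibroblasts and the Cxcl2 of cluster 16 and cluster 14 stood further above it.

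Keeping only tumour cells with at most 2 UMIs of the 7 neutrophil markers left 1971 of 4093 cells and separated the ligands further. Cxcl1 then averaged 125 ± 82.9 CPM, against 112 ± 62.6 in all tumour cells (SD, n = 12 mice each). Cxcl2 averaged 76.3 ± 43.7 CPM, against 1595 ± 874, and Cxcl3 21.9 ± 16.8, against 70.4 ± 29.2. In cluster 23 the pooled Cxcl2 level was 68.6 CPM in such cells and 594 in all, and in cluster 21 129 and 3229. Cxcl1 in cluster 23 was 134 and 147 CPM, whereas cluster 21 had 10.0 in such cells and 36.0 in all. In cluster 16, where 933 of 1377 cells passed, Cxcl2 was 4053 CPM in such cells and 5102 in all, and Cxcl3 257 and 285. Macrophages had a Cxcl2 level of 706 CPM in such cells and 1280 in all. Doublets were not called, so neutrophil RNA from free transcripts, from doublets and from attached cells cannot be told apart here.

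**Figure D2:**
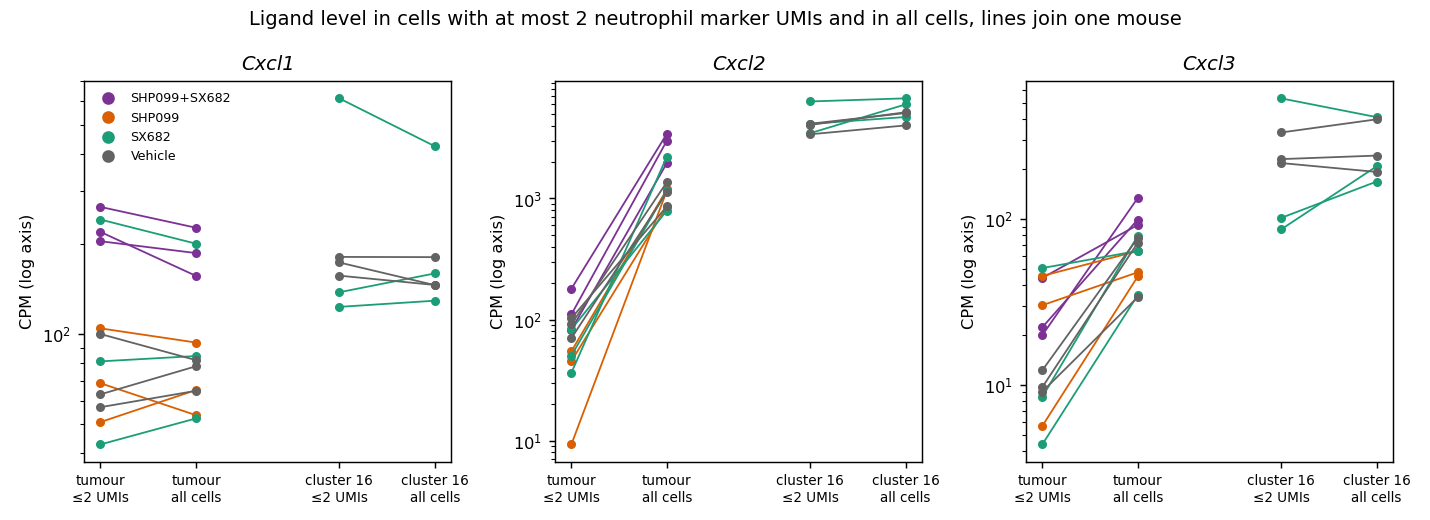
Cxcl1, Cxcl2 and Cxcl3 in tumour cells and in cluster 16, in CPM on a log axis, for cells with at most 2 neutrophil marker UMIs and for all cells, with points as mice that have at least 50 cells (coloured by treatment) and lines joining the same mouse. In tumour cells mean Cxcl1 was 125 CPM in the selected cells and 112 in all, whereas mean Cxcl2 was 76.3 and 1595.

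Within neutrophils the ligands were spread unevenly over the states. Cxcl2 averaged 38268 ± 4913 CPM in N2 and 16774 in N6 (n = 12), so every state had it. N3 held 35.5% of the neutrophil Cxcl2 UMIs and N2 21.5%. Cxcl3 averaged 3304 ± 2951 CPM in N5 and 411 in N1. Cxcl1 was 127 ± 80.8 CPM in N2, 62.6 ± 94.6 in N4, 56.4 ± 48.1 in N3 and 5.25 in N1. N2 held 36.7% of the neutrophil Cxcl1 UMIs, N3 34.7% and N4 18.4%. That Cxcl2 is high in N2 and Cxcl3 in N5 follows from how those states were defined.

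Across the 33 clusters, the genes whose pooled log2(CPM + 10) profile was most like that of Cxcl2 were Il1b (Pearson r = 0.988), Nlrp3 (0.980), Cd14 (0.976), Il1rn (0.970) and Ccrl2 (0.966). For Cxcl3 they were Arg2 (0.941), Trem1 (0.939), Acod1 (0.926), Clec4e (0.925) and Nlrp3 (0.920). For Cxcl1 the likeness was weaker, led by Phlda1 (0.771), F3 (0.753), which encodes tissue factor, and Hbegf (0.728). For Ppbp it was led by Ednrb (0.676), and Pf4 was also among the 5, at 0.603. The clusters share captures and depth differences, so these r values are descriptions. With a pseudocount of 1 CPM, 4 of the 5 genes were the same for Cxcl1 and for Cxcl2 but 1 of 5 for Cxcl3 and for Ppbp.

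The sources shifted with treatment. Neutrophils held 71.4, 68.9 and 65.3% of a mouse's Cxcl2 UMIs in the combination, 86.2, 81.2 and 82.4% in SHP099 and 51.8, 58.4 and 32.03% in SX682 mice, against 39.5, 43.1 and 21.98% in Vehicle mice. All 6 mice given SHP099, alone or combined, stood above all Vehicle mice, while SX682 and Vehicle mice overlapped. The 4 treatments differed by the exact permutation test over 12 mice (F on the logit share, two-sided, adjusted over 12 ligand and class pairs, adjusted p = 0.00312). For Cxcl3 the neutrophil share was 67.7, 58.4 and 64.4% in the combination, 85.7, 80.4 and 84.4% in SHP099 and 40.9, 56.9 and 40.7% in SX682, against 32.3, 39.2 and 24.2% in Vehicle mice. Here every mouse of the 3 drug groups was above every Vehicle mouse (exact permutation adjusted p = 0.000779). Its unadjusted p of 6.494e-05 is the smallest that the permutations can give.

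For Cxcl1 the shift was towards tumour cells in the combination. Their share was 77.5, 86.9 and 84.0% in the combination, 45.1, 67.1 and 52.1% in SHP099 and 57.6, 31.03 and 27.2% in SX682, against 53.8, 51.6 and 31.8% in Vehicle mice (exact permutation adjusted p = 0.0127). The combination stood above all 9 other mice, and the other treatments overlapped. With each cell capped at 10 UMIs the adjusted p was 0.0591, and by cells with a UMI it was 0.141. Neutrophils held a mean of 9.91% of Cxcl1 in the combination, 26.2% in SHP099, 3.82% in SX682 and 4.65% in Vehicle mice (exact permutation adjusted p = 0.0167). Cluster 16 had a smaller share where SHP099 was given: its mean was 0.247% of Cxcl1 in the combination, 4.41% in SHP099, 28.3% in SX682 and 26.7% in Vehicle mice (exact permutation adjusted p = 0.0127). For Cxcl2 its mean share was 0.658, 0.632, 15.9 and 25.1% in that order of treatments (exact permutation adjusted p = 0.00592). Of the 12 share tests 10 passed an adjusted p of 0.05, and the macrophage shares of Cxcl1 (0.1075) and Cxcl2 (0.0621) did not.

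**Figure D3:**
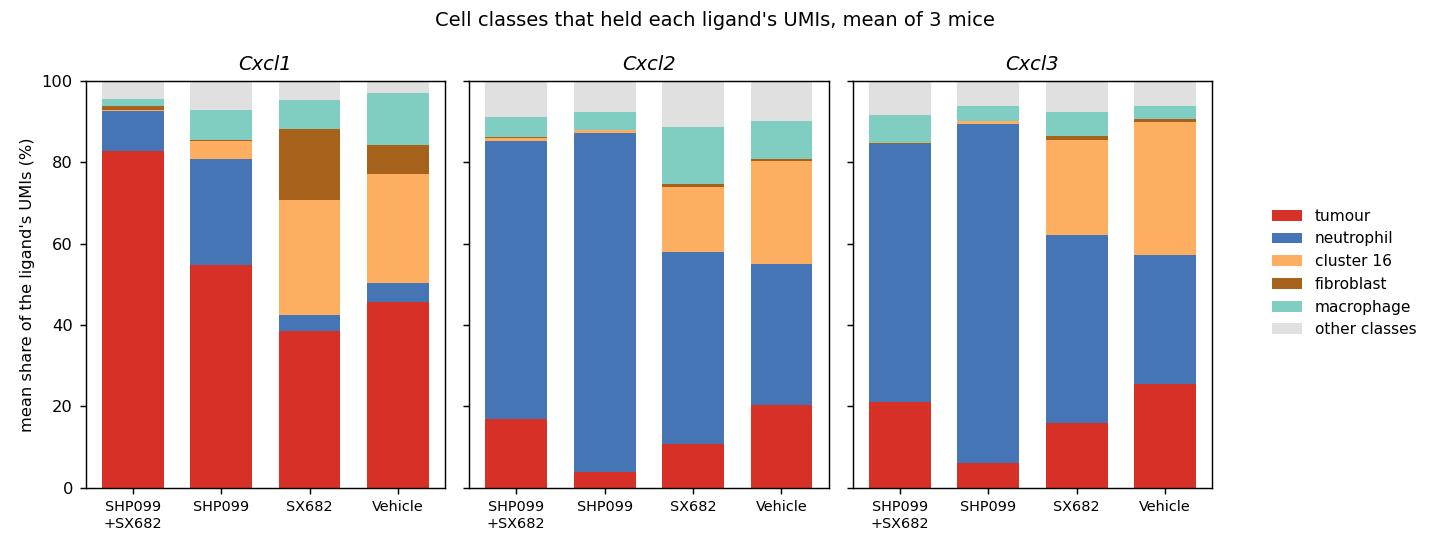
Mean share over 3 mice of each ligand's UMIs held by each cell class, in percent, stacked by treatment for Cxcl1, Cxcl2 and Cxcl3. Neutrophils held 68.5% of Cxcl2 in the combination and 83.3% in SHP099, against 34.9% in Vehicle mice, and tumour cells held 82.8% of Cxcl1 in the combination, against 45.7% in Vehicle mice.

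The make-up of the suspensions moved with these shares. Neutrophils were 23.1, 25.3 and 31.02% of cells in the combination, 28.3, 36.2 and 27.8% in SHP099 and 18.1, 20.6 and 6.26% in SX682, against 16.1, 13.1 and 9.88% in Vehicle mice. Cluster 16 had 7, 35 and 7 cells in the combination, 13, 17 and 2 in SHP099 and 113, 115 and 102 in SX682, against 454, 180 and 332 in Vehicle mice. Tumour cells gave 22.5 to 27.5% of all UMIs in the combination, 11.3 to 15.7% in SHP099 and 12.8 to 33.9% in SX682, against 37.4 to 45.0% in Vehicle mice. Enrichment and dissociation can also set these proportions, and their part was not tested.

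Summed over all cells of a mouse, Cxcl1 fell and Cxcl2 rose with SHP099. Cxcl1 stood at 13.4, 21.9 and 19.5 CPM in SHP099 mice, against 65.4, 59.4 and 85.2 CPM in Vehicle mice, which did not overlap, as was so for 60.9% of genes (log2 fold change -1.91 ± 0.44 SE, edgeR quasi-likelihood adjusted p = 0.00515). Cxcl2 stood at 4076, 4288 and 3393 CPM in SHP099 mice, against 2524, 2051 and 2267 CPM in Vehicle mice (0.81 ± 0.24, adjusted p = 0.0165). The Cxcl2 call was lost without SHP099 replicate 2 or Vehicle replicate 2, with a log2 fold change of 0.73 to 0.90 over all left-out mice. Ppbp fell by 3.96 ± 0.93 on the log2 scale (adjusted p = 0.00567), and Cxcl3 did not pass (0.36 ± 0.31, adjusted p = 0.363). So 3 of 4 members were called, where 47.0% of all 14702 genes tested were. A sum over all cells cannot tell fewer cells of a type from less RNA per cell.

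In the combination the all-cell sums had Cxcl2 at 4722, 3686 and 4331 CPM, above the same Vehicle values (0.88 ± 0.24, edgeR adjusted p = 0.0223), while Cxcl1 was 65.8, 59.0 and 50.9 CPM and did not pass (-0.28, adjusted p = 0.655). The Cxcl2 call was lost without combination replicate 1 or 3 or Vehicle replicate 2 or 3 (0.80 to 0.95). Ppbp fell by 2.61 ± 0.80 on the log2 scale (adjusted p = 0.0377), a call lost with equal cell numbers (0.0508) and kept in 4 of 12 fits that each left out 1 mouse, with a range of -3.91 to -2.17. Thus 2 of 4 members passed, against 24.7% of genes. With SX682 no member passed by edgeR (1 of 4, Ppbp, at an unadjusted p below 0.05) or by DESeq2, against 4.03% of genes: the log2 fold change of Cxcl1 was -0.21, of Cxcl2 0.15, of Cxcl3 -0.39 and of Ppbp -2.02 (adjusted p = 0.120). Vehicle mice are the common reference of these contrasts, which are therefore not independent.

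Within neutrophils Cxcl1 was lower with every drug. It stood at 53.1, 40.9 and 53.4 CPM in the combination, 31.2, 23.7 and 38.6 in SHP099 and 25.4, 60.2 and 10.5 in SX682, against 95.2, 107 and 127 CPM in Vehicle neutrophils. The Vehicle mice stood above all 9 treated mice, where 26.2% of genes did not overlap between combination and Vehicle mice, 30.9% between SHP099 and Vehicle and 15.7% between SX682 and Vehicle. The counts behind these values were small, at 68, 64 and 65 UMIs in the combination, 50, 39 and 37 in SHP099 and 24, 86 and 3 in SX682, against 115, 69 and 43 in Vehicle mice. The log2 fold change was -1.24 ± 0.26 in the combination (edgeR adjusted p = 0.00638), -1.93 ± 0.28 in SHP099 (0.000125) and -1.58 ± 0.28 in SX682 (0.00768).

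Of 3 ligands tested in neutrophils, 2 passed in the combination, where 6.43% of genes did, 3 in SHP099 (13.1%) and 1 in SX682 (0.508%). Cxcl3 stood at 729, 931 and 632 CPM in the combination, 660, 667 and 782 in SHP099 and 816, 794 and 769 in SX682, against 1213, 717 and 1369 in Vehicle neutrophils, so Vehicle replicate 2 lay among the treated mice. Its combination call (-0.62 ± 0.18, edgeR adjusted p = 0.0473) was kept in 3 of 12 fits that left out a mouse (-0.86 to -0.48). Without Vehicle replicate 1 the SX682 value for Cxcl1 was -1.63 and the call was lost (adjusted p = 0.0526). Cxcl2 stood at 29994, 25996 and 21365 CPM in the combination, 23216, 21493 and 21562 in SHP099 and 28560, 30053 and 23332 in SX682, against 28711, 25737 and 27222 in Vehicle neutrophils. SHP099 lay below all Vehicle mice and the other groups overlapped them. The SHP099 values were -0.42 ± 0.13 for Cxcl2 (edgeR adjusted p = 0.0347), lost without SHP099 replicate 2 or 3 or Vehicle replicate 1 or 3 (-0.47 to -0.33), and -0.76 ± 0.19 for Cxcl3 (0.00913), lost without Vehicle replicate 1 or 3 (-0.99 to -0.62). The treatment effects on Cxcl1 were less than additive, with an interaction of 2.27 ± 0.40 on the log2 scale (adjusted p = 0.00313, against 1.77% of genes called), a call kept in 12 of 12 fits that left out a mouse.

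RNA of other cells in the neutrophils moved with this result. Arg1, Pf4, Saa3, Ccl24, Fcna and Ccl7, which lead cluster 16, summed to 47.6, 58.1 and 44.4 CPM in combination neutrophils, 26.8, 24.96 and 34.4 in SHP099 and 46.6, 37.1 and 41.9 in SX682, against 102.6, 94.4 and 88.4 CPM in Vehicle neutrophils. The 8 epithelial markers summed to 213, 249 and 219 CPM in the combination, 63.0, 88.3 and 112 in SHP099 and 201, 207 and 171 in SX682, against 422, 353 and 459 in Vehicle neutrophils. Both sums were highest in all 3 Vehicle mice. In neutrophils with no UMI of these 14 genes, Cxcl1 stood at 50.3, 35.8 and 43.9 CPM in the combination, 33.04, 12.7 and 35.8 in SHP099 and 25.7, 67.3 and 4.54 in SX682, against 105.9, 82.9 and 13.4 CPM in Vehicle mice. Vehicle replicate 3 then had 3 Cxcl1 UMIs in 179 cells, and the groups overlapped. The SHP099 call remained (-1.72 ± 0.46, edgeR adjusted p = 0.0193), and those in the combination (-0.98 ± 0.43, 0.215) and SX682 (-1.06 ± 0.47, 0.531) were lost. So were those for Cxcl2 (-0.43 ± 0.15, 0.0717) and Cxcl3 (-0.47 ± 0.21, 0.165) in SHP099. The interaction for Cxcl1 was then 1.80 ± 0.64 (0.284). With equal numbers of neutrophils drawn per mouse, the SHP099 value for Cxcl1 was -0.45 ± 0.34 (0.461) and the SX682 value -2.36 (0.00858). The combination call and the interaction for Cxcl1 were also lost in that fit, as was the Cxcl2 call in SHP099.

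By state, the calls lay in N1, N2 and N5, and by edgeR none were in N3, N4 or N6, where 4 of 42 tests of a ligand had an unadjusted p below 0.05 and DESeq2 called 0. In N2, the state of highest Cxcl1 and Cxcl2 CPM, Cxcl3 stood at 305, 566 and 360 CPM in the combination, 559, 380 and 915 in SHP099 and 688, 586 and 570 in SX682, against 1562, 884 and 1071 CPM in Vehicle mice. The combination and SX682 values lay below all Vehicle values, and SHP099 overlapped them. Of all genes, 22.1% did not overlap between the combination and Vehicle and 14.2% between SX682 and Vehicle. Cxcl3 fell by 1.60 ± 0.25 on the log2 scale in the combination (edgeR adjusted p = 0.000240, kept in 12 of 12 fits without 1 mouse), in a contrast with 3.61% of genes called. It fell by 1.09 ± 0.24 in SHP099 (0.00523, 6.98% of genes called) and 1.05 ± 0.24 in SX682 (0.0432, 0.555% of genes called). The SHP099 call was lost without Vehicle replicate 1 (-1.43 to -0.77 over left-out mice). The SX682 call was lost without that mouse, SX682 replicate 2 or 3 or combination replicate 3, with a range of -1.24 to -0.72. Cxcl1 in N2 was lower in SHP099 (-1.69 ± 0.46, 0.0216), a call lost without Vehicle replicate 1 or SHP099 replicate 1 or 2 (-2.32 to -1.04). In N5 Cxcl3 fell by 1.89 ± 0.37 in the combination (0.00471, 0.860% of genes called) and by 1.48 ± 0.37 in SHP099 (0.0203, 3.15% called). Without Vehicle replicate 3, which had 11965 CPM of Cxcl3 in N5 against 4572 and 3380 in the other Vehicle mice, both were lost. They were also lost without combination replicate 1 or 3 (-2.16 to -1.17) and SHP099 replicate 1 or 3 (-1.76 to -0.76). With equal cell numbers drawn per mouse, Cxcl3 was not called in N2 or N5 in any of these contrasts. In N1 Cxcl2 fell by 0.54 ± 0.14 in SHP099 (0.0153, 8.29% called), lost without SHP099 replicate 2 or 3 or Vehicle replicate 1 or 3 (-0.69 to -0.44).

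In tumour cells the ligands stood higher in the combination. Cxcl1 was 227, 187 and 157 CPM in the combination, 53.7, 93.8 and 65.1 in SHP099 and 201, 84.6 and 52.4 in SX682, against 78.2, 82.0 and 64.7 CPM in Vehicle mice. The combination did not overlap Vehicle (34.7% of genes did not) or SHP099, and SX682 replicate 1 lay among the combination mice. Against Vehicle the log2 fold change was 1.30 ± 0.34 (edgeR adjusted p = 0.0270). The call was lost without combination replicate 1 or 2 or any 1 Vehicle mouse, while the value stayed between 1.18 and 1.40. In the cells with at most 2 neutrophil marker UMIs Cxcl1 was 266, 204 and 220 CPM in the combination, 68.6, 105 and 50.9 in SHP099 and 241, 81.2 and 42.9 in SX682, against 63.0, 100.2 and 57.1 in Vehicle mice. There the fold change was 1.61 ± 0.42 (adjusted p = 0.0390).

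Cxcl2 in tumour cells was 3005, 1964 and 3426 CPM in the combination, 1164, 857 and 1190 in SHP099 and 1165, 2218 and 795 in SX682, against 1366, 860 and 1128 CPM in Vehicle mice (combination 1.28 ± 0.30, edgeR adjusted p = 0.0176). That call was lost without combination replicate 1 or 3 or Vehicle replicate 2 or 3 (1.09 to 1.48). In the cells with few neutrophil UMIs it was 110, 82.4 and 180 CPM in the combination, 9.31, 45.4 and 54.7 in SHP099 and 50.4, 36.4 and 83.1 in SX682, against 91.7, 102.5 and 70.2 in Vehicle mice. Those values overlapped and gave 0.38 ± 0.35 (0.610). Summed neutrophil markers in tumour cells stood at 4017, 3027 and 6284 CPM in the combination, 2825, 1132 and 1690 in SHP099 and 2141, 3285 and 1105 in SX682, against 4005, 2618 and 2550 in Vehicle mice. Cxcl3 did not pass (0.78 ± 0.29, adjusted p = 0.104), so 2 of 3 ligands were called in the combination, where 10.3% of genes were. By edgeR 0 of 3 passed in SHP099 (13.3% of genes called) and 0 of 3 in SX682 (0.109%), and 0 had an unadjusted p below 0.05 in either. DESeq2 also called 0 in both. The log2 fold changes of Cxcl1 were -0.03 in SHP099 and 0.58 in SX682, and their signs changed when single mice were left out. Against SHP099, the combination had higher Cxcl2 (1.32 ± 0.31, 0.0479, 1.67% of genes called), a call kept in 4 of 12 fits without 1 mouse (1.13 to 1.52).

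Summed over all their cells, both tumour clusters had a Cxcl1 difference. In cluster 23 Cxcl1 was 305, 221 and 250 CPM in the combination, 70.8, 110 and 74.5 in SHP099 and 254, 114 and 54.6 in SX682, against 96.9, 112 and 107 CPM in Vehicle mice (combination 1.25 ± 0.31, edgeR adjusted p = 0.0212, 8.91% of genes called). It was lost without combination replicate 1 or 3 or any 1 Vehicle mouse (1.14 to 1.35), by DESeq2 and with equal cell numbers. In cluster 21 it was 85.5, 84.7 and 44.0 CPM in the combination, 9.08, 4.16 and 23.6 in SHP099 and 31.7, 37.9 and 48.8 in SX682, against 41.1, 13.2 and 16.3 CPM in Vehicle mice (combination 1.46 ± 0.35, 0.0133, 9.81% of genes called). It was lost without combination replicate 1 or 2 or Vehicle replicate 3 (1.21 to 2.21). The combination mice were above all Vehicle mice in both clusters, narrowly so in cluster 21, where 32.3% of genes did not overlap in cluster 23 and 33.5% in cluster 21. Neutrophil markers in cluster 21 summed to 8443, 8116 and 11415 CPM in the combination, against 9656, 6894 and 4394 in Vehicle mice, and in cluster 23 to 1571, 1312 and 2035 CPM, against 1157, 777 and 932. In cells with at most 2 neutrophil marker UMIs, Cxcl1 in cluster 23 was 298, 217 and 230 CPM in the combination, against 74.5, 118 and 88.6 in Vehicle mice, again without overlap. In cluster 21 such cells had 0, 34.4 and 0 CPM in the combination (20, 34 and 6 cells), against 6.75, 19.5 and 4.46 in Vehicle mice (188, 104 and 164 cells), which overlapped. Cxcl2 in cluster 21 was also higher in the combination (1.32 ± 0.23, 0.00155; lost with equal cell numbers), in a cluster whose pooled Cxcl2 level was 129 CPM in cells with few neutrophil UMIs and 3229 in all.

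**Figure D4:**
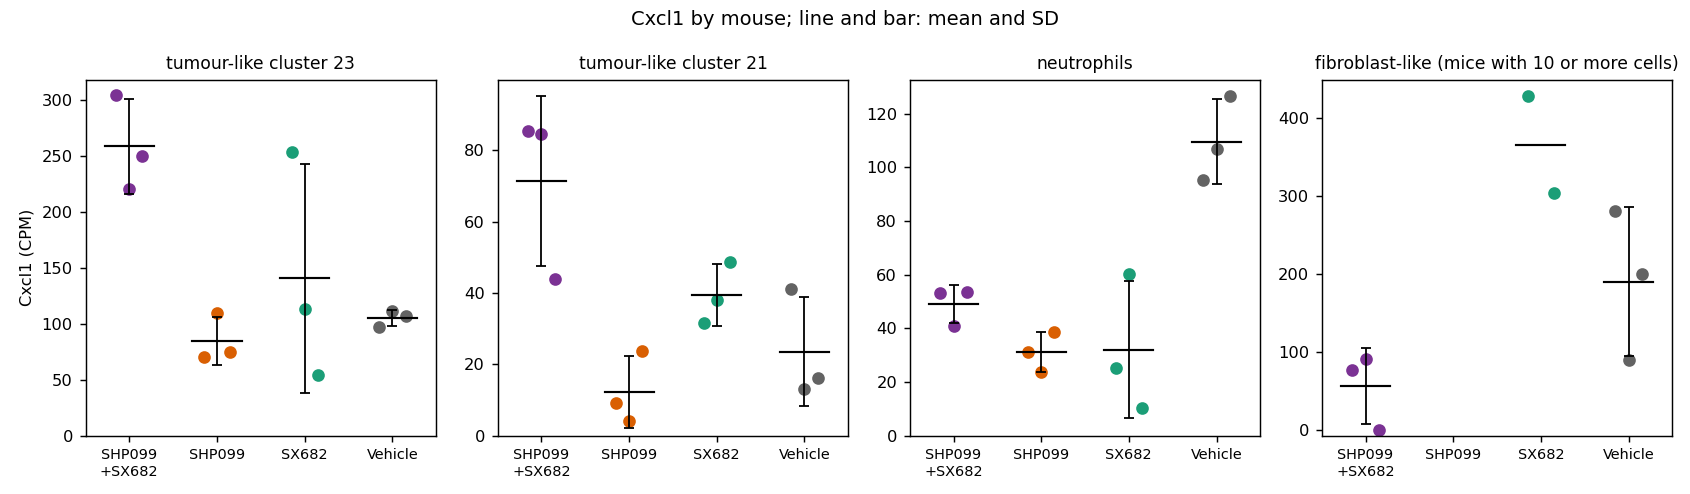
Cxcl1 in tumour clusters 23 and 21, neutrophils and fibroblasts, in CPM, by treatment (SHP099+SX682, SHP099, SX682 and Vehicle), with a separate axis for each panel. Points are mice, lines are means and bars are SD where 3 mice are shown: in cluster 23 the combination mice had 221 to 305 CPM and Vehicle mice 96.9 to 112, while neutrophils averaged 49.1 ± 7.14 and 110 ± 15.9.

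The treatment effect was tested for a difference between classes, in 1 edgeR fit of both classes with mouse as a block. The effect on Cxcl1 was higher in tumour cells than in neutrophils by 2.47 ± 0.36 on the log2 scale for the combination (adjusted p = 0.00104, 1.71% of genes called), 1.72 ± 0.40 for SHP099 (0.0135, 3.44%) and 2.11 ± 0.40 for SX682 (0.0296, 0.0757%). The combination difference was kept in all 13 alternatives run. The SHP099 difference was lost without SHP099 replicate 2 (1.24, 0.158). The SX682 difference was lost in 4 of 13, without SX682 replicate 1 or any 1 Vehicle mouse (1.25 to 3.41). For the combination the difference was 1.41 ± 0.24 for Cxcl2 (0.00306) and 1.39 ± 0.25 for Cxcl3 (0.00426), both kept in all 13. The neutrophil RNA in tumour cells enters these Cxcl2 and Cxcl3 values and its part was not tested in this fit. For Cxcl1 the separate fits gave -0.03 in SHP099 and 0.58 in SX682 tumour cells, and -1.93 and -1.58 in neutrophils. The tumour class pools clusters 21 and 23, whose own SHP099 values were -1.12 and -0.27 (neither called by edgeR). The part of their mix in the Cxcl1 differences was not tested. The neutrophil Cxcl1 calls in the combination and SX682 were lost in cells without cluster 16 or epithelial UMIs. The part of cluster 16 and epithelial RNA in the Cxcl1 differences was not tested either.

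Among macrophages Cxcl3 was called in the combination, at 34.5, 129 and 19.3 CPM, against 19.6, 20.99 and 13.6 CPM in Vehicle mice, and combination replicate 2 stood apart (1.89 ± 0.48, edgeR adjusted p = 0.0314, 5.37% of genes called). Without it the value was 0.57 with an adjusted p of 0.357. The call was also lost without any 1 Vehicle mouse (1.75 to 1.99). The combination effect on Cxcl3 was higher in macrophages than in neutrophils by 2.13 ± 0.37 (edgeR adjusted p = 0.00325, 0.878% of genes called) and by 1.31 (0.0657) without combination replicate 2. Cxcl1 in macrophages was 20.3, 4.09 and 0 CPM in the combination, 2.31, 15.1 and 6.34 in SHP099 and 18.3, 10.0 and 13.2 in SX682, against 14.4, 37.3 and 133 in Vehicle mice. It was not called in the combination (-3.02 ± 0.86, edgeR adjusted p = 0.0568), SHP099 (-2.80 ± 0.87, 0.0523) or SX682 (-2.19 ± 0.68, 0.313).

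Fibroblasts had the highest mean Cxcl1 level of the named classes but few cells. It was 76.7, 90.0 and 0 CPM in the combination and 428 and 304 in the 2 SX682 mice with at least 10 fibroblasts, against 281, 89.4 and 200 CPM in Vehicle mice, and no SHP099 mouse had 10. The combination was lower than SX682 (-2.62 ± 0.57, edgeR adjusted p = 0.0199, 8.04% of genes called), which was lost without combination replicate 2 or SX682 replicate 1 (-2.97 to -2.22) and with equal cell numbers (-1.32), and was not called against Vehicle (-1.75 ± 0.56, 0.108). In cluster 16 Cxcl1 was 424, 129 and 160 CPM in SX682, against 146, 146 and 181 CPM in Vehicle mice, and did not pass (0.51 ± 0.39, 0.939). Only 1 combination mouse, with 39.2 CPM, had at least 10 cells of cluster 16. In SHP099, with 2 such mice at 49.5 and 0 CPM, no ligand passed by edgeR (0.197% of genes called): Cxcl1 was -3.10 ± 0.92 (adjusted p = 0.172), Cxcl2 -1.09 ± 0.31 (0.163) and Cxcl3 -1.29 ± 0.51 (0.298). These 3 of 4 had an unadjusted p below 0.05, and DESeq2 called Cxcl1 (-3.03, 0.0109) and Cxcl2 (-1.07, 0.0437).

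Ppbp in cluster 16 was lower with SX682. It stood at 5.82, 2.57 and 4.99 CPM in SX682 mice, against 64.0, 30.3 and 50.8 CPM in Vehicle mice, with no overlap, which 14.6% of genes shared (-3.53 ± 0.44, edgeR adjusted p = 0.00779, 1 of 4 ligands, with 0.139% of genes called). The counts were 7, 3 and 5 UMIs in SX682, against 246, 50 and 150 in Vehicle mice. Without SX682 replicate 2 the adjusted p was 0.0896. The Vehicle UMIs sat in 30, 18 and 24 cells, and the highest cell had 86. Without the highest cell of each mouse the levels were 3.33, 0 and 1.99 CPM in SX682, against 41.6, 14.5 and 41.3 CPM in Vehicle mice (-3.28 ± 0.40, 0.00674). In the combination no Ppbp UMI was seen in 7, 35 and 7 cells of cluster 16, and in SHP099 5 UMIs were seen in 1 cell.

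**Figure D5:**
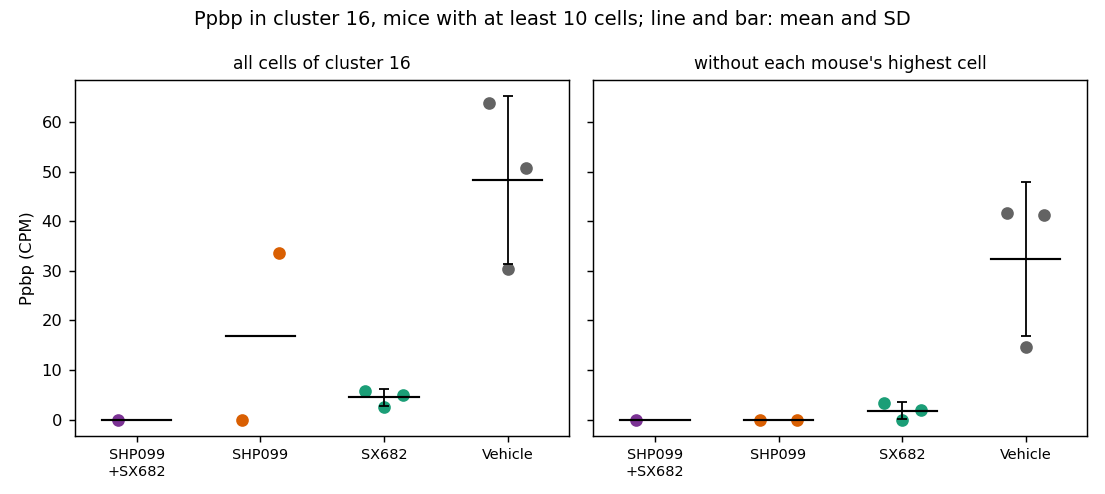
Ppbp in cluster 16 by treatment, in CPM, with all cells (left) and without the highest cell of each mouse (right). Points are mice with at least 10 cells of the cluster, lines are means and bars are SD where 3 mice are shown: with all cells SX682 mice had 2.57 to 5.82 CPM and Vehicle mice 30.3 to 64.0.

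Of the megakaryocyte and platelet genes checked, Pf4 accompanied it, 5 were at 0 and Itgb3 was near its level elsewhere in the cluster. In the 82 cluster 16 cells with a Ppbp UMI, Ppbp was 538 CPM and Pf4 3449 CPM, while Gp9, Itga2b, Gp1bb, Treml1 and Gp6 were all at 0. Itgb3, which other cells also express, had 3 UMIs there (3.46 CPM) and was at 4.70 CPM in the cluster 16 cells without Ppbp. The macrophage gene C1qa was 1186 CPM there. In the 1295 cells of cluster 16 without Ppbp, Pf4 was 912 CPM. In the 125 cells of other clusters with a Ppbp UMI, Gp9 was 42.4 CPM and Itga2b 38.1 CPM, and 22.4% of them had a UMI of at least 1 platelet gene. Pf4 in cluster 16 was 915, 302 and 319 CPM in SX682, against 1682, 1248 and 1048 CPM in Vehicle mice, without overlap, as for 14.6% of genes. By edgeR Pf4 was not called in that contrast, where 0 of 14 measured chemokines of the list given below passed.

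The bulk libraries of sorted Epcam+ cells were a separate assay of these ligands, with 51939301 to 73361005 counted reads each. Epcam averaged 392 ± 226 CPM in SHP099 and 311 ± 25.2 in Vehicle libraries, and the leukocyte gene Ptprc 8.91 ± 5.35 and 13.6 ± 3.83 (SD, n = 3 each). Markers of other lung cells were lower in SHP099: the alveolar type 2 gene Sftpc averaged 287 ± 122 CPM in SHP099 and 3290 ± 1366 in Vehicle libraries, the fibroblast gene Col1a1 114 ± 30.3 and 372 ± 114, and the macrophage gene C1qa 4.79 ± 3.12 and 13.1 ± 3.13 (SD, n = 3 each). Their part in the bulk ligand values was not tested. Cxcl1 had 164, 173 and 218 CPM in SHP099, against 86.2, 89.1 and 74.1 CPM in Vehicle libraries, without overlap, as for 15.5% of genes. The log2 fold change was 1.14 ± 0.15 with an adjusted p of 0.0569 by edgeR, while DESeq2 gave 1.15 and 7.15e-07. In the single-cell tumour class the same contrast gave -0.03 ± 0.37 (not called by edgeR), from other mice and another assay. Within that class it gave -1.12 ± 0.77 in cluster 21 and -0.27 ± 0.35 in cluster 23 (neither called by edgeR). SHP099 mice had 31, 21 and 15 cells of cluster 21 and 47, 63 and 42 of cluster 23. Vehicle mice had 596, 243 and 379 of cluster 21 and 527, 280 and 201 of cluster 23. The part of this mix in the class value was not tested. For a value per length, the annotated exons of each gene were merged. For these 3 genes they form 1 block each, of 1875, 2068 and 3498 bases, the whole gene span and not the length of a spliced transcript. Per kilobase of this span, Cxcl1 averaged 98.7 CPM in SHP099 and 44.3 in Vehicle libraries, Cxcl2 11.1 and 8.13, and Cxcl3 1.502 and 0.851. By these values Cxcl1 was the main ligand of the 3 in these cells. Cxcl2 had 31.2, 22.3 and 15.3 CPM in SHP099, against 20.7, 12.5 and 17.2 CPM in Vehicle libraries (0.42 ± 0.28, adjusted p = 0.727). Cxcl3 was 5.77, 4.94 and 5.04 CPM, against 4.64, 2.46 and 1.83 CPM (0.80 ± 0.36, 0.594). No member passed by edgeR, where 0.113% of 20314 genes were called and 1812 had an unadjusted p below 0.05. Of the members, 1 had an unadjusted p below 0.05 and 1 passed by DESeq2, in both cases Cxcl1.

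The bulk Cxcl2 level was 12.5 to 31.2 CPM. It lay far below the 857 to 1366 CPM of the single-cell tumour class in SHP099 and Vehicle mice. It was nearer to the 9.31 to 102.5 CPM of that class's cells with few neutrophil UMIs in the same mice. The scales differ, since UMIs and whole-transcript reads weight length differently. S100a8 in bulk was 20.01, 21.3 and 8.71 CPM in SHP099, against 15.9, 6.72 and 11.4 CPM in Vehicle libraries. Ppbp in bulk was 3.77, 4.41 and 3.503 CPM in SHP099, against 2.58, 3.60 and 24.7 CPM in Vehicle libraries, and its fold change of -1.42 ± 0.79 (edgeR adjusted p = 0.681) became 0.31 ± 0.28 without Vehicle replicate 3. Pf4 was 2.32, 3.99 and 1.53 CPM in SHP099, against 7.14, 4.79 and 20.3 CPM in Vehicle libraries, with the same library highest.

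Other genes of the pathway were taken from lists. Of 6 CXCR2 axis genes (Cxcl5, Cxcl15, Cxcr1, Cxcr2, Ackr1 and Mif), 3 were measured in tumour cells, and in the combination Cxcl5, another CXCR2 ligand, rose (2.64 ± 0.30, edgeR adjusted p = 0.000301), as did the neutrophil receptor gene Cxcr2 (1.11 ± 0.22, 0.00802), while Mif fell. The list median was 1.11, against 0.01 for all genes, of which 10.3% were called. In neutrophils 0 of 3 axis genes passed by edgeR in any contrast with Vehicle, with at most 1 at an unadjusted p below 0.05. Of all genes, 6.43% were called there in the combination, 13.1% in SHP099 and 0.508% in SX682. In bulk Cxcl5 rose (1.68 ± 0.17, 0.0313) and Cxcl15, a gene of alveolar and airway epithelium, fell (-3.22 ± 0.38, 0.0415), of 6 tested. Of all bulk genes 0.113% were called.

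Of 21 inducers of the ligands and NF-kB feedback genes, 6 of 20 measured rose and 0 fell in tumour cells of the combination, with a median of 0.40 against 0.01 for all genes, of which 10.3% were called. They were Icam1 (0.99), Il1b (1.09), Nfkb1 (0.59), Nfkbie (0.79), Ptgs2 (1.34) and Tnf (1.32). Of these, Il1b, Ptgs2 and Tnf are among the leading genes of neutrophil state N2. The part of neutrophil RNA in these 6 values was not tested. In neutrophils of SHP099 mice 2 of 19 rose (Il17ra, Nfkb1) and 3 fell, the feedback and early response genes Ier3 (-0.63), Nfkbia (-0.73) and Zfp36 (-0.81), with a median of -0.07 against 0.01 for all genes, of which 13.1% were called. In the combination 0 of 19 rose and the same 3 fell (6.43% of genes called), and in SX682 0 rose and Ier3 fell (0.508%). In bulk 0 of 20 passed by edgeR in either direction, with 4 at an unadjusted p below 0.05. Of 16 other chemokines, 3 of 11 rose in SHP099 neutrophils (Ccl3, Ccl4, Ccl5) and 5 fell (Ccl2, Ccl6, Ccl7, Ccl9 and Pf4), with Pf4 at -4.44 ± 0.59, a list median of -0.89 against 0.01 for all genes, and the same 13.1% of genes called. Ccl7 and Pf4 are leading genes of cluster 16, whose cell numbers and RNA in neutrophils are given above. In bulk 0 of 16 passed, with 7 at an unadjusted p below 0.05.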

How the data were processed

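Single cells of 12 mice and bulk Epcam+ cells of 6 mice were analysed. The authors deposited raw UMI counts per cell and raw read counts per gene, with a cell table holding cluster, mouse and neutrophil state. The submitters' processing notes name bcl2fastq, Cell Ranger, STAR, HTSeq, Picard, bedtools, DESeq2 and R 3.3.0 with mm10. The bulk kit marks strand, and how strand was counted is not given in the sources used here.

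UMIs were summed per mouse and class (at least 10 cells) and fitted with edgeR 4.0.16 (TMM, filterByExpr, quasi-likelihood, all 4 treatments in 1 fit, Benjamini-Hochberg over all genes, call below 0.05) in R 4.3.3. CPM values are unscaled, and fold changes use TMM. DESeq2 1.42.0 was an alternative. Shares were tested by exact permutation with 0.5 UMIs added. The fits and the share test were tested on simulated data. Members, lists and markers were chosen with earlier results of these data known. The rule named the 4 members, the 5 genes most like each, and list genes called, by size. By the labels replicates are separate mice, and mice of different treatments have only a replicate number in common. Depth was 7391763 to 34819434 UMIs per mouse, and low-count levels carry counting error beside the spread of mice. Barcodes with no deposited cluster were not used.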

Additional observations from a re-analysis of the deposited data

Results flagged for a closer look

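These differences between effects passed a test of the difference itself. The effect of a treatment on Cxcl1 relative to Vehicle was higher in tumour cells than in neutrophils by 2.469 on the log2 scale for the combination, by 1.718 for SHP099 and by 2.115 for SX682 (edgeR interaction of class and treatment with mouse as a block, adjusted p = 0.00104, 0.0135 and 0.0296). Cxcl1 per mouse was 227, 187 and 157 CPM in combination tumour cells and 53.1, 40.9 and 53.4 CPM in combination neutrophils, with Vehicle at 78.2, 82.0 and 64.7 CPM in tumour cells and 95.2, 107 and 127 CPM in neutrophils. RNA of other cells within neutrophils and within tumour cells enters these values, and its part was not tested in this fit. For the combination the difference was 1.415 for Cxcl2 and 1.394 for Cxcl3 (adjusted p = 0.00306 and 0.00426). In macrophages against neutrophils it was 2.131 for Cxcl3 (0.00325), with combination replicate 2 at 129 CPM in macrophages, above all other mice there, and 1.31 (0.0657) without that mouse.

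The SHP099 effect on Cxcl1 in neutrophils was 2.274 higher on the log2 scale with SX682 than without it (edgeR interaction, adjusted p = 0.00313). Means were 49.1 ± 7.14 CPM in the combination, 31.2 ± 7.43 in SHP099, 32.04 ± 25.5 in SX682 and 110 ± 15.9 in Vehicle neutrophils (SD, n = 3 mice each). In neutrophils without UMIs of cluster 16 or epithelial genes the same term was 1.80 (adjusted p = 0.284). It was also not called with equal numbers of neutrophils per mouse.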

How the results depend on the processing

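The edgeR count of ligand calls was 5 of 24 over all cells, 12 of 54 within neutrophils, tumour cells and macrophages, 7 of 84 within neutrophil states and 0 in bulk. Over all cells DESeq2 gave 9, and leaving out single mice 2 (without Vehicle replicate 2) to 10 (without SX682 replicate 1). Within those 3 classes it was 34 of 72 with no filter on low counts, 5 with equal cell numbers, 6 with neutrophils free of cluster 16 and epithelial UMIs (an alternative chosen after seeing the data), and 5 to 13 without 1 mouse, at 7 without Vehicle replicate 1 and 5 without Vehicle replicate 3. Within states it was 17 with no filter, 4 by DESeq2, 3 with cells of at least 1000 UMIs, 2 with equal cell numbers and 4 to 9 without 1 mouse. In bulk 1 member, Cxcl1, passed with no filter (adjusted p = 0.000866) and 1 by DESeq2. Fewer cells or genes enter some of these fits, and otherwise the cause was not tested. The tumour means of Cxcl2 and Cxcl3 were 76.3 and 21.9 CPM in cells with at most 2 neutrophil marker UMIs, against 1595 and 70.4. With a pseudocount of 1 CPM, 1 of 5 like genes stayed for Cxcl3 and 1 of 5 for Ppbp.

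Directions turned only for values that were not called. In tumour cells the SHP099 values became 1.27 for Cxcl1 and 0.35 for Cxcl2 with equal cell numbers, and 0.094 for Cxcl1 and 1.55 for Cxcl3 with at most 2 neutrophil marker UMIs. There SX682 gave -0.73 for Cxcl2 and 1.26 for Cxcl3. Without 1 mouse the SHP099 values in tumour cells ran from -0.32 to 0.12 for Cxcl1, -0.21 to 0.12 for Cxcl2 and -0.49 to 0.0056 for Cxcl3. The SX682 values ran from -0.17 to 0.88, -0.25 to 0.52 and -0.38 to 0.14 in the same order of genes. Over all cells SX682 gave -0.98 to 0.14 for Cxcl1 and -0.19 to 0.40 for Cxcl2, and in bulk Ppbp gave -1.85 to 0.31, the last without Vehicle replicate 3.

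Deviations of same-numbered replicates from their group means had correlations of -0.0318 to 0.0305 in bulk, -0.11 to 0.429 over all cells and -0.1 to 0.151 in neutrophils. For pairs of different numbers they were -0.118 to 0.104, -0.408 to 0.189 and -0.12 to 0.135 in that order. The ranges overlap, and over all cells the same-numbered pairs reached higher. These values do not decide whether the numbers pair the mice. With the replicate block, Cxcl1 in bulk had an adjusted p of 0.140, and the calls for Cxcl2 in tumour cells of the combination against SHP099 and for Cxcl3 in neutrophils of the combination were lost. Of alternatives for single genes 794 kept direction and call, 138 lost the call, 7 gained it and 20 turned. Of those for share tests 184 kept it, 3 lost it and 5 gained it. Ppbp and neutrophil Cxcl1 rest on few UMIs per mouse.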
